A study of Mus musculus with 6 samples.

Results

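The PU.1 binding sites of mouse chromosome 19 were examined in iBN cells, with every peak of the authors' 6 peak lists that lies on this chromosome as a member. The chromosome was selected on measured values of these same lists, namely the share of regions gained after induction and the rank shift of regions bound in both conditions. Those values are therefore given as descriptions without a test. The 6 lists held 10869 peaks on chromosome 19 of 316138 peaks in all. The peaks of the 4 single libraries merged into 2865 regions on chromosome 19, of 82810 in the whole series.

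iBN cells are labelled as BN cells, which are granulocyte-macrophage progenitors, with a system through which PU.1 can be induced. All cultures were grown in GM-CSF and all carried the inducible system. Induced cells had 1000 ng/ml doxycycline for 72 hours, and uninduced cells had none. There were 2 PU.1 libraries per condition and 1 merged list per condition made by the authors, in build mm9. Whether the replicates were separate cultures is not in the labels, and their spread may be technical. The purity and the marker genes of the cells could not be checked with peak lists.

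PU.1, encoded by Spi1, is an ETS-family transcription factor that binds purine-rich DNA with a GGAA core and can open chromatin at its sites. Myeloid and B-lymphoid cells depend on it, and its amount influences whether progenitors take macrophage, granulocyte or other fates. A ChIP-seq peak is a stretch where fragments pulled down with the antibody pile up above the local background. Its score grows with the strength of that evidence. The number of DNA copies of a chromosome in the cells also enters the fragment number.

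Peak density on chromosome 19 was high in every list, and the ratio between the conditions was larger there than on any other autosome. On chromosome 19 there were 2564 peaks in induced replicate 1 and 2173 in induced replicate 2, against 965 in uninduced replicate 1 and 1238 in uninduced replicate 2. Both induced libraries lay above both uninduced ones. Over the 58.3 Mb between the 3-Mb mark and the last peak end, these numbers gave 43.9 and 37.2 peaks per Mb in the induced libraries and 16.5 and 21.2 in the uninduced ones. The means were 40.6 ± 4.74 and 18.9 ± 3.31 peaks per Mb (SD, n = 2 each), a ratio of 2.15. On the other 18 autosomes the ratio of the same means ran from 1.60 on chromosome 15 to 1.79 on chromosome 11, with a median of 1.68.

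In the induced libraries chromosome 19 was the densest autosome, ahead of chromosome 11 with 39.0 and 32.8 peaks per Mb. In uninduced replicate 1 it was also first, with 16.5 peaks per Mb against 16.4 on chromosome 11. In uninduced replicate 2 it came second, since chromosome 11 held 23.8 peaks per Mb there. The high density was thus also seen in uninduced cells.

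**Figure D1:**
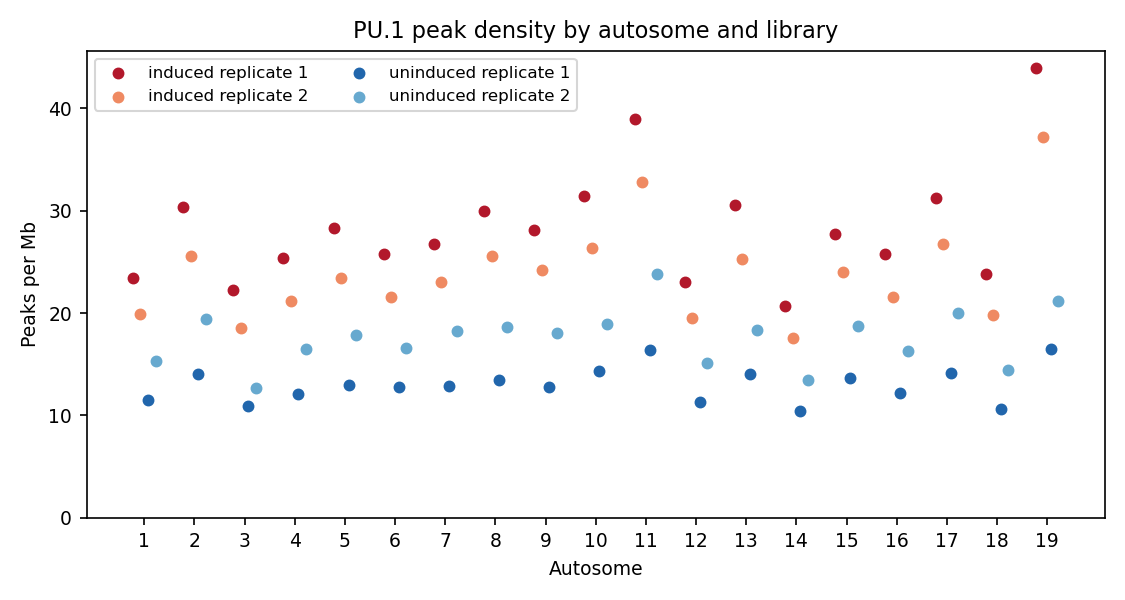
PU.1 peaks per Mb (vertical axis) on each autosome (horizontal axis), with 1 point per library. On chromosome 19 the induced libraries reach 43.9 and 37.2 peaks per Mb, each the highest value of its library, and the uninduced libraries lie at 16.5 and 21.2.

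List length differed between the conditions, so the share of each list on chromosome 19 is also given. The share of autosomal peaks was 3.84% in induced replicate 1 (95% Wilson interval 3.69 to 3.98%) and 3.85% in induced replicate 2 (3.70 to 4.02%). It was 3.11% in uninduced replicate 1 (2.92 to 3.30%) and 2.95% in uninduced replicate 2 (2.79 to 3.11%). The induced shares differed from each other by less than the uninduced shares did, and the 2 conditions did not overlap. The difference of the means was 0.817 percentage points, against a range from -0.311 on chromosome 7 to 0.417 on chromosome 11 over the other autosomes. The intervals cover counting error only. Read depth is unknown, and its part in the difference was not tested.

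Peaks on chromosome 19 were also wide. Their median width was 1077.5 and 1047 bp in induced replicates 1 and 2 and 1019 and 966 bp in uninduced replicates 1 and 2. In each of the 6 lists this was the highest median of the 19 autosomes, ahead of chromosome 8. Width did not set the conditions apart in the same way: the ratio of the mean medians was 1.07 on chromosome 19 and 1.05 to 1.12 on the others. Peaks of 3 kb or more numbered 99 and 50 with induction against 5 and 6 without it. Other autosomes showed the same direction, such as chromosome 3 with 115 and 64 against 6 and 5, and chromosome 8 with 108 and 62 against 12 and 17. As a share of its peaks, chromosome 19 had 3.86% and 2.30% with induction, where the others reached at most 3.30% and 2.21%. Without induction it had 0.518% and 0.485%, where the others reached 0.691% and 0.707%. Peaks covered 3.41 and 2.72 Mb in the induced libraries against 1.06 and 1.31 Mb without induction. The ratio of these means was 2.60, against 1.84 to 2.15 on the other autosomes.

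Score ranks of all peaks together barely moved. Ranked within its own list, the median peak of chromosome 19 stood at percentile 52.5 and 54.3 in induced replicates 1 and 2 and at 53.1 and 52.8 in uninduced replicates 1 and 2. The conditions overlapped. Each list holds its own set of peaks, so this measure compares unlike sets.

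The regions on chromosome 19 fell into 4 classes by where a peak was called. Regions called in both induced libraries but in no uninduced one, termed gained, numbered 866 (30.2%), where 22.4% of all autosomal regions were gained. Regions called in all 4 libraries, termed shared, numbered 654 (22.8%), where 23.7% of autosomal regions were shared. Regions called in both uninduced libraries but in no induced one, termed lost, numbered 53 (1.85%), where 3.65% of autosomal regions were lost. The other 1292 regions were mixed. A missing peak means only that none was called.

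Over autosomes 1 to 18 the gained share ran from 20.1% on chromosome 15 to 24.9% on chromosome 3, and the lost share from 2.08% on chromosome 11 to 4.76% on chromosome 14. There were 16.3 gained regions per lost region on chromosome 19 and 4.50 to 10.9 on the others. Lost regions per shared region came to 0.0810 on chromosome 19, near the 0.0806 on chromosome 11. On autosomes 1 to 18 together the value was 0.157. Gained regions per shared region came to 1.32 on chromosome 19 and 0.931 on the other autosomes together, so that the first was 1.42 times the second. Single autosomes ran from 0.795 on chromosome 7 to 1.19 on chromosome 3. Without uninduced replicate 2 this relative value was 1.15. It was 1.14 when each 100-kb window was counted once per class. Among single counts, leaving out induced replicate 2 gave 1386 gained regions, leaving out uninduced replicate 1 gave 1012 shared and 101 lost regions, and leaving out uninduced replicate 2 gave 134 lost regions.

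Among the mixed regions, 502 (17.5%) had a peak in induced replicate 1 only, and 358 (12.5%) in both induced libraries and uninduced replicate 2. On the other autosomes these patterns took 15.3% and 14.7% of regions. Regions found in a single uninduced library and nowhere else were fewer: 81 (2.83%) in uninduced replicate 1 and 48 (1.68%) in uninduced replicate 2, against 5.29% and 4.09% elsewhere. Sites of a single uninduced library thus took a smaller share of the regions on chromosome 19.

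Overlap between the lists was also counted peak by peak. Of the peaks of uninduced replicate 1 on chromosome 19, 84.2% overlapped induced replicate 1 and 80.8% induced replicate 2. The highest values elsewhere were 83.4% and 80.3%, both on chromosome 11. Of the peaks of uninduced replicate 2, 90.8% and 87.6% overlapped induced replicates 1 and 2, against at most 88.8% and 84.6% elsewhere. In the other direction, 30.8% and 41.5% of the peaks of induced replicate 1 overlapped uninduced replicates 1 and 2, below the lowest values elsewhere of 31.5% and 43.6%.

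Overlap between replicates of 1 condition lay within the range of the other autosomes. For induced replicate 2 in induced replicate 1 it was 93.2%, with 90.9 to 93.4% elsewhere. For uninduced replicate 1 in uninduced replicate 2 it was 78.8%, with 71.9 to 83.5% elsewhere.

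Gained regions lay along the whole chromosome. In all 13 windows of 5 Mb the share of gained regions was above the 22.4% of all autosomal regions. It ran from 24.3% in the last window to 36.5% at 15 to 20 Mb. Among windows with at least 10 shared regions, the other autosomes ran from 4 of 18 above 22.4% on chromosome 15 to 14 of 22 on chromosome 10. The first window holds no peak before 3.03 Mb, and the last ends at 61.3 Mb. Gained regions numbered 51 at 0 to 5 Mb, 104 at 5 to 10 Mb, 68 at 10 to 15 Mb, 73 at 15 to 20 Mb and 75 at 20 to 25 Mb. They numbered 55 at 25 to 30 Mb, 89 at 30 to 35 Mb, 61 at 35 to 40 Mb and 87 at 40 to 45 Mb. The remaining windows held 89 at 45 to 50 Mb, 43 at 50 to 55 Mb, 54 at 55 to 60 Mb and 17 beyond 60 Mb. The second window held the most gained regions and the short last window the fewest.

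Shared regions ran from 95 at 5 to 10 Mb down to 21 at 35 to 40 Mb and 18 in the short last window. Gained regions per shared region were highest at 35 to 40 Mb (2.90), 15 to 20 Mb (2.03) and 20 to 25 Mb (1.83). They were lowest in the last window (0.944), at 55 to 60 Mb (1.00) and at 0 to 5 Mb (1.02). Lost regions were few in each window, from 1 to 7.

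**Figure D2:**
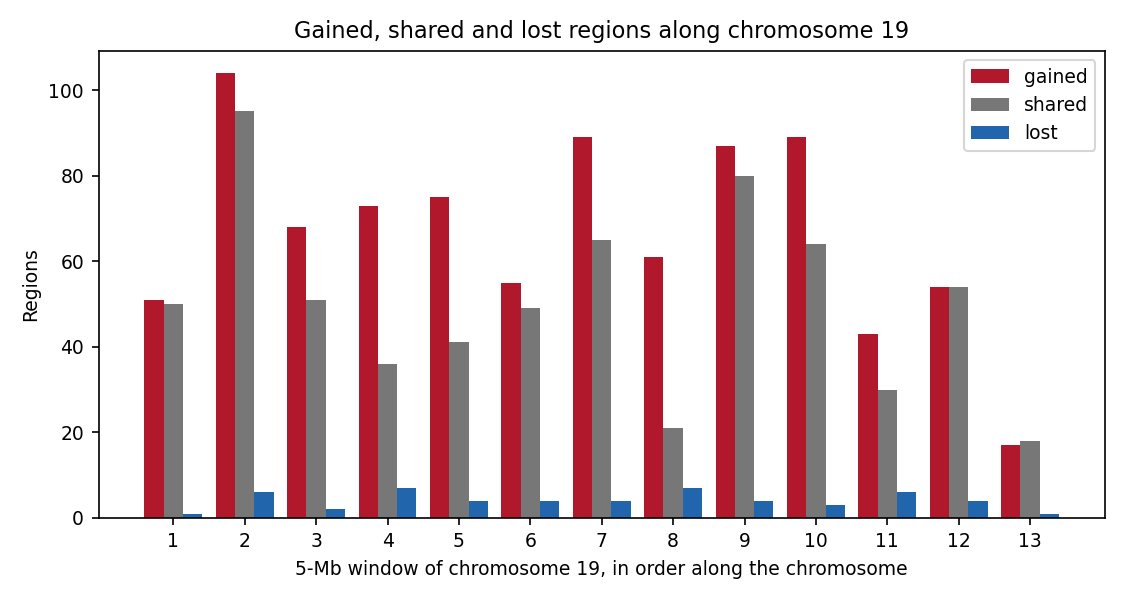
Number of gained, shared and lost regions (vertical axis) in each of the 13 windows of 5 Mb along chromosome 19 (horizontal axis, in order). The second window holds the most gained (104) and shared (95) regions, and no window holds more than 7 lost regions.

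Peaks per Mb were highest in the first window, with 81.5 and 66.0 in induced replicates 1 and 2 and 30.5 and 39.0 in uninduced replicates 1 and 2. At 5 to 10 Mb they were 68.6, 58.2, 24.0 and 36.8 in the same order. The lowest values of uninduced replicates 1 and 2, 9.40 and 11.6, were at 35 to 40 Mb, and those of induced replicates 1 and 2, 27.8 and 22, at 50 to 55 Mb. In all 13 windows both induced libraries held more peaks than both uninduced ones, the lowest induced count being 1.52 to 2.25 times the highest uninduced count. The induced lists were also longer on autosomes 1 to 18, with 64283 and 54223 peaks against 30110 and 40745. How many windows there had the same order is not given here.

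The ratio of the mean peak numbers ran from 1.78 at 55 to 60 Mb to 2.52 at 15 to 20 Mb, with a median of 2.11 over the 13 windows. The other autosomes had 424 windows with at least 10 shared regions, where the median ratio was 1.69 and the 95th percentile 2.05. On chromosome 19, 13 of 13 windows lay above that median and 10 of 13 above that percentile.

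The 654 shared regions allow strength to be compared at the same places. All autosomal shared regions were ranked by score within each library, and the percentile of each region was compared between libraries. The median percentile of the chromosome 19 regions was 62.6 in induced replicate 1, 61.8 in induced replicate 2, 52.3 in uninduced replicate 1 and 45.6 in uninduced replicate 2. The induced values lay above both uninduced ones and close to each other, and the uninduced values were further apart. Both induced values were the highest of the 19 autosomes, where the others reached at most 54.3 and 54.8. The uninduced values took place 3 and place 16 from the highest.

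The median shift, the mean induced minus the mean uninduced percentile of each region, was 8.12 points on chromosome 19. On the other autosomes it ran from -2.40 on chromosome 13 to 2.33 on chromosome 3. For the single pairs the median was 6.08 (induced 1 minus uninduced 1), 8.98 (induced 1 minus uninduced 2), 6.39 (induced 2 minus uninduced 1) and 9.51 (induced 2 minus uninduced 2). In each of the 4 pairs chromosome 19 had the highest median, and the highest of the others was 2.72, 3.80, 2.53 and 4.94.

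Differences between replicates were measured in the same regions. Induced replicate 1 minus 2 gave -0.497 points on chromosome 19, within -0.748 to 0.183 on the others. Uninduced replicate 1 minus 2 gave 3.77 points, second to chromosome 3 with 5.23. The smallest of the 4 pair differences, 6.08, was larger than that replicate difference in percentile points. The chromosome was selected partly on this shift, so the comparison is a description and no test. Without uninduced replicate 2, with classes and ranks rebuilt from the other 3 libraries, the median shift was 4.97 points, and the next autosome was chromosome 11 with 2.17.

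**Figure D3:**
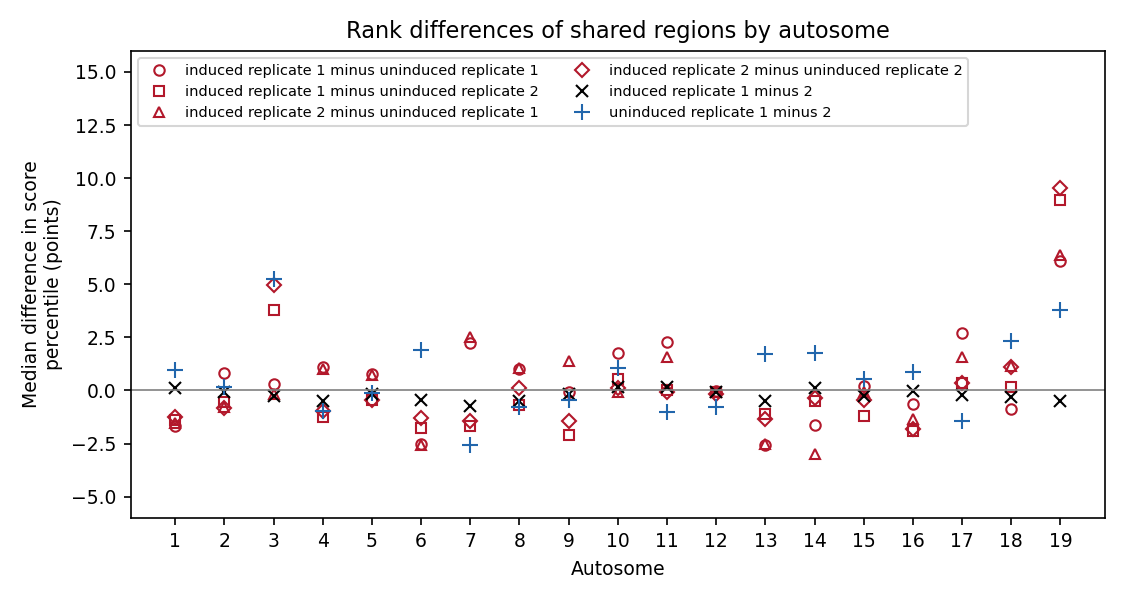
Median difference in score percentile of shared regions (vertical axis, points) on each autosome (horizontal axis). Red open symbols are the 4 induced-minus-uninduced pairs, black crosses and blue plus signs the replicate differences within a condition. On chromosome 19 the pairs lie at 6.08 to 9.51 and the uninduced replicates differ by 3.77.

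The shift was spread over many regions. It was above 0 in 430 of the 654 regions (65.7%), where the other autosomes had 46.0 to 53.4%. The lower and upper quartiles were -6.73 and 27.1 points, and on autosomes 1 to 18 together -15.6 and 15.0. Both induced percentiles exceeded both uninduced ones in 316 regions (48.3%), where 30.6% of all autosomal shared regions did so. Both lay below in 122 regions (18.7%), where 30.8% did so. In the other 216 regions the conditions overlapped.

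**Figure D4:**
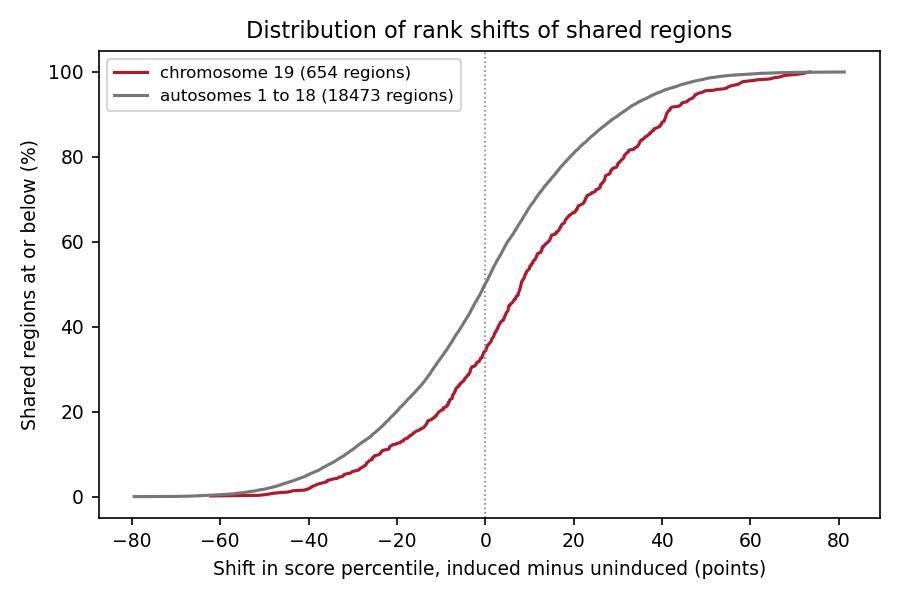
Cumulative share of shared regions (vertical axis, %) by shift in score percentile, induced minus uninduced (horizontal axis, points), for chromosome 19 (654 regions) and autosomes 1 to 18 (18473 regions). The curves cross 50% at medians of 8.12 and -0.0627 points.

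Regions of different strength did not share the shift equally. When all autosomal shared regions were divided into 4 equal bins by their mean percentile over the 4 libraries, chromosome 19 had 126, 164, 177 and 187 regions from the weakest to the strongest bin. Their median shifts were -0.691, 14.4, 18.4 and 5.98 points. On autosomes 1 to 18 the medians of the same bins were -5.04, -0.548, 4.91 and 1.55. In each bin the chromosome 19 median exceeded the highest other autosome (-1.87, 3.73, 12.1 and 4.92). Percentiles have less room to move at either end of the scale.

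The scores behind these ranks were as follows. In induced replicate 1 the median score of shared regions was 708 on chromosome 19 and 490 on the other autosomes, and in induced replicate 2 it was 446 and 316. In uninduced replicate 1 it was 182 and 172, and in uninduced replicate 2 it was 219 and 243. After division of each library by its median score over autosomal shared regions, the median log2 ratio of induced to uninduced was 0.31 on chromosome 19 and -0.29 to -0.01 on the others. The log2 ratio of uninduced replicate 1 to 2 on chromosome 19 was 0.38, larger than this, with 0.05 to 0.44 on the others. The 2 ratios do not share a baseline, since the medians of the other autosomes were -0.14 between the conditions and 0.21 between the uninduced replicates. On chromosome 19 the ratio between the conditions lay above the range of the others, and the replicate ratio lay within it.

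Ranking by summed peak width in place of score gave a smaller median shift of 1.20 points on chromosome 19. The others ran from -2.77 to -0.155.

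Along the chromosome the median shift was above 0 in 12 of 13 windows, where 47.4% of all autosomal windows with at least 10 shared regions were. It was 12.4 points at 0 to 5 Mb, 13.5 at 5 to 10 Mb, 4.13 at 10 to 15 Mb, 7.43 at 15 to 20 Mb and 11.5 at 20 to 25 Mb. It was 8.93 at 25 to 30 Mb, 6.88 at 30 to 35 Mb, 1.39 at 35 to 40 Mb and 14.4 at 40 to 45 Mb. The last windows gave 8.50 at 45 to 50 Mb, 8.13 at 50 to 55 Mb, -1.31 at 55 to 60 Mb and 2.27 in the short last window with its 18 shared regions. The run of 11 neighbouring windows above 0 ended at 55 Mb, and the longest run elsewhere was 7, on chromosome 3.

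Among all 437 autosomal windows, the window at 40 to 45 Mb took place 4 from the highest, 5 to 10 Mb place 6, 0 to 5 Mb place 7 and 20 to 25 Mb place 9. The window at 55 to 60 Mb took place 259. In 8 of 13 windows all 4 pairs were above 0, where 20.4% of autosomal windows were. The 5 others were those at 25 to 30, 30 to 35, 35 to 40 and 55 to 60 Mb and the last one.

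The uninduced replicates differed by unequal amounts along the chromosome. Uninduced replicate 1 minus 2 gave 21.7 points at 35 to 40 Mb, 14.2 at 25 to 30 Mb, 8.61 at 55 to 60 Mb and 8.52 at 20 to 25 Mb. At 35 to 40 Mb the pairs with uninduced replicate 1 gave -5.35 and -3.79 points and those with uninduced replicate 2 gave 13.6 and 16.4, so that the direction there depended on the uninduced library. At 0 to 5 and 5 to 10 Mb all 4 pairs lay between 12.3 and 20.7 points, and the uninduced replicates differed by 3.31 and -0.227. At 45 to 50 Mb the pairs lay between 8.38 and 10.3 points and the uninduced replicates differed by 0.212. The induced replicates differed by -2.61 to 2.56 points over the 13 windows.

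**Figure D5:**
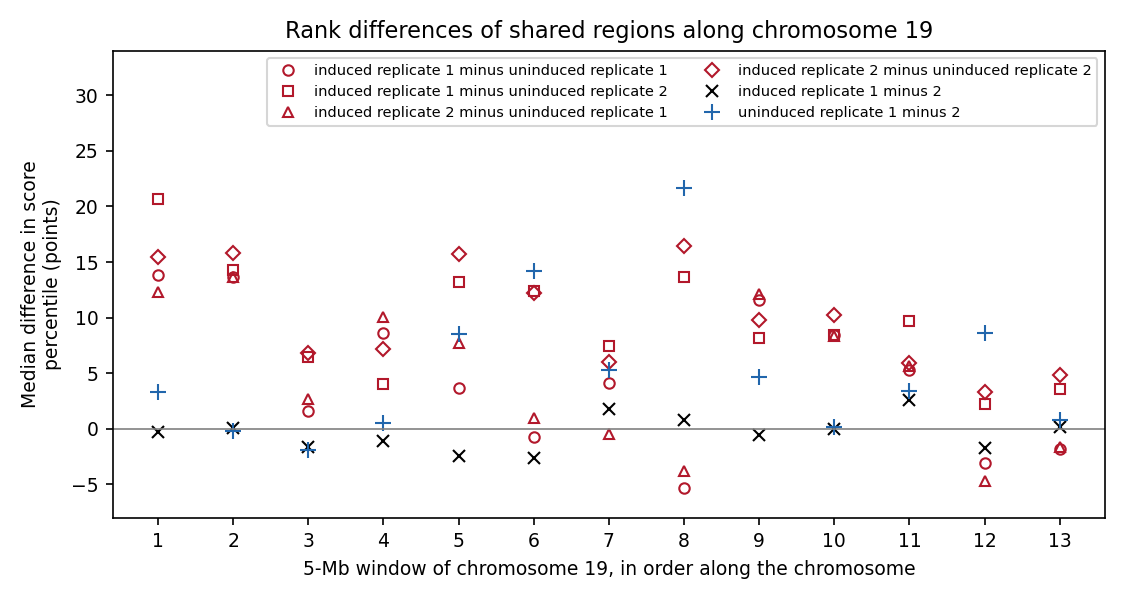
Median difference in score percentile of shared regions (vertical axis, points) in each 5-Mb window of chromosome 19 (horizontal axis, in order). Red open symbols are the 4 induced-minus-uninduced pairs, black crosses and blue plus signs the replicate differences. All 4 pairs lie above 12 points in the first 2 windows, and in the eighth window the pairs have opposite signs and the uninduced replicates differ by 21.7 points.

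The strongest gained region, by the lower of its 2 induced scores, was chr19:46253746-46255501, which scored 1069.38 in induced replicate 1 and 968.53 in induced replicate 2. Next came chr19:7579738-7581507 (1539.91 and 928.58), chr19:16422846-16424460 (1274.06 and 893.91), chr19:23206674-23212111 (1740.77 and 813.41) and chr19:44339563-44340881 (1177.47 and 785.29). None had a peak in either uninduced library. The last of these was, however, called in the merged uninduced list. The 5 regions lay in 5 different windows. Over all 866 gained regions the lower induced score ran from 50 to 968.53 with a median of 96.8. Both induced scores reached 100 in 423 of them.

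Of the gained regions, 285 (32.9%) had a shared region at most 10 kb away, which is near the median of 33.3% over the other autosomes (range 28.1 to 40.1%). The density of shared regions was high, with 11.2 per Mb on chromosome 19 and 5.84 to 11.5 on the others. The median score of gained regions was 147 in induced replicate 1 and 104 in induced replicate 2, and elsewhere it was 138 and 94.4.

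The strongest shared region was chr19:18704602-18706899, with induced scores of 3100 and 3184.55 and uninduced scores of 1428.09 and 1442.32. The second was chr19:42054780-42058060, with 3100 and 3116.14 against 1648.75 and 2137.25. A further 4 regions scored exactly 3100 in both induced libraries, a value carried by many top peaks, so their order is not defined. The first 3 of them along the chromosome were chr19:4297196-4306721 (530.09 and 1118.33 in uninduced replicates 1 and 2), chr19:5290980-5292502 (481.79 and 2355.29) and chr19:8093916-8095477 (3100 and 3153.51). The last of these was thus at the top of all 4 libraries.

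The largest rise in rank among shared regions whose percentiles did not overlap between conditions was at chr19:5566576-5571269. Its induced scores were 2095.79 and 1193.64 and its uninduced scores 50.35 and 180.71, a shift of 73.4 points. It was followed by chr19:3562247-3564939, with 2306.58 and 1665.33 against 82.27 and 132.79 (72.5 points), and chr19:40711647-40714943, with 1669.21 and 1001.24 against 78.52 and 92.33 (72.2 points). The fourth was chr19:28084168-28087305, with 932.52 and 633.56 against 53.06 and 55.11 (71.1 points). The fifth was chr19:46130271-46132323, with 987.69 and 612.12 against 56.66 and 58.69 (69.9 points). Among autosomal shared regions, the 5 regions stood at percentiles 0.277 to 37.8 in the uninduced and 72.2 to 96.1 in the induced libraries. Shifts above 50 points were found in 29 such regions (4.43% of the shared regions), where 1.66% of all autosomal shared regions had one. Chromosome 3 was close, with 4.37%. Shifts below -50 points were found in 2 regions (0.306%), where 1.69% had one.

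The largest fall was at chr19:60741414-60742501, with induced scores of 145.82 and 153.19 and uninduced scores of 1641.91 and 355.89, a shift of -62.2 points. The next were chr19:55622303-55624025, with 263.59 and 104.2 against 425.52 and 376.27 (-51.3 points), and chr19:52952894-52954337, with 136.18 and 183.13 against 528.27 and 309.77 (-49.9 points). All 3 lay in the last 3 windows, beyond 50 Mb. Shared regions with both induced percentiles below both uninduced ones were, however, found in every window. They numbered 16 at 30 to 35 Mb, 15 at 40 to 45 Mb and 16 at 55 to 60 Mb.

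The 53 lost regions were weak, with a median of 59.1 for the lower uninduced score. The strongest were chr19:15511354-15512169 (130.01 and 144.31 in uninduced replicates 1 and 2), chr19:56326595-56327507 (353.63 and 107.14) and chr19:60160299-60161172 (102.13 and 108.52). The second was also called in the merged induced list. In 4 lost regions neither uninduced score was below 100. A shared region at most 10 kb away was found for 5 of the 53 (9.43%), with 6.56 to 16.3% on the other autosomes.

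The merged lists, which by their names combine the libraries of a condition and are not taken as an independent source, held 2680 induced and 1249 uninduced peaks on chromosome 19. Of the merged induced peaks 1638 (61.1%) had no merged uninduced peak, where 53.3% of all autosomal merged induced peaks had none. On the other autosomes this share ran from 49.5 to 58.1%. Of the merged uninduced peaks 163 (13.1%) had no merged induced peak, with 12.6 to 28.5% elsewhere. The 1040 regions present in both merged lists had a median rank shift of 5.61 points, with -2.64 to 1.06 on the other autosomes. All 866 gained regions had a merged induced peak and 16 had a merged uninduced one.

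A coordinated change of binding and a difference in the number of chromosome 19 copies between the cultures cannot be told apart with these lists, which carry no read counts, and the 2 input libraries were not analysed here.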

How the data were processed

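PU.1 ChIP-seq peak lists of 2 induced and 2 uninduced libraries and 1 merged list per condition were used; samples were grouped by title. Build mm9, MACS 1.4.1, Bowtie and Trim Galore are named, per the submitters' processing notes, without roles. Each list the authors deposited has 5 columns without a header, and the score is 1 value per peak with a minimum of 50. Its scale, the control used and the merging of lists are stated in none of the sources used here. Scores are the authors' own and were compared between lists only as ranks or after division by each list's median. Read totals are unknown.

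Peaks of the 4 libraries overlapping by at least 1 bp were merged into regions and classed by presence. Percentiles were taken over autosomal shared regions, by the best score in each library. Windows of 5 Mb took regions by midpoint. X and Y were left out of comparisons. Wilson intervals are at 95%. No test was run, because the chromosome, measures and alternatives were chosen with earlier results of these data known. Regions named are the 5 strongest gained and shared, the 3 strongest lost, and the 5 largest rises and 3 largest falls in rank without overlap. Coordinates are 1-based. No mm9 genome or annotation was used, so no gene or sequence is given. Class and rank functions were tested on simulated lists. Python 3.11.15, NumPy 2.4.6, pandas 2.3.3, SciPy 1.17.1 and matplotlib 3.10.9 were used. Alternatives were an overlap of 50% of both intervals, scores of 100 or more, lists cut to 31960 peaks each, leaving out each library, a replicate block, 100-kb windows, merged lists, width, log2 scores, regions below 3100 and other window sizes.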

Additional observations from a re-analysis of the deposited data

How the results depend on the processing

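From the peaks of the single libraries, the median rank shift of every autosome was recomputed under 9 alternatives. The value of chromosome 19 was the highest in each of these and in the merged lists. It was 1.20 points by width, 5.61 in the merged lists (an alternative added after seeing the data), and 4.97 to 8.05 when 1 library was left out, lowest without uninduced replicate 2. The share difference was 0.993 percentage points with lists of equal length. Gained regions numbered 355 with equal lists, 344 by 100-kb windows, 1638 in the merged lists and 946 to 1386 with 1 library left out. Shared regions numbered 393 with scores of at least 100, 271 by 100-kb windows, 1040 in the merged lists and 663 to 1012 with 1 library left out. Lost regions numbered 96 with 50% overlap, 12 with scores of at least 100, 80 with equal lists, 163 in the merged lists and 60 to 134 with 1 library left out. Fewer peaks, 1 count per window or fewer libraries per class change these counts by construction. For 50% overlap, width and the merged lists the cause was not tested. Gained per shared region was 1.14 to 1.56 times the value of autosomes 1 to 18 pooled; single autosomes were not compared under these alternatives. With the replicate block the shift was 7.80 points and the share difference 0.730 and 0.904 percentage points in the 2 pairs. Whether same-numbered libraries were handled together is not known. The correlation of their deviations over 19127 shared regions was -0.0245, which cannot decide it. Windows of 2 Mb were above 0 in 19 of 22 and windows of 10 Mb in 7 of 7. Unknown depth limits all counts of absent peaks.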
